A study of Mus musculus with 8 samples.

Results

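MicroRNA genes are listed in these RNA-seq data as short entries of hairpin size beside the protein-coding genes, and 88 such entries are described here. They were chosen by their symbols and by their measured values. Of 23235 gene entries, 616 had a miRNA symbol, and 517 of these were listed at 0 in all 8 libraries. Another 11 were above 0 but never above 1 FPKM (fragments scaled to transcript length and to the mapped fragments of the library). The remaining 88 were above 1 FPKM in at least 1 library, which is the limit used to choose them. Of these, 86 were numbered miRNAs. The other 2, Mira and Mirg, are long noncoding transcripts and not hairpins. The highest FPKM of a library was 3.66 for Mir147, the member nearest to the limit, and 0.0529 for Mir5117, the nearest entry below it.

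Spermatocytes of C57BL/6 males were sorted by flow cytometry at the leptotene and zygotene (LZ) stages or at the pachytene and diplotene (PD) stages. The 4 groups were WT LZ, Cnot4-null LZ, WT PD and Cnot4-null PD, with 2 libraries each. The libraries called Cnot4-null here carry the genotype label Cnot4-KO, and according to the methods such males were Cnot4 fl/fl;Stra8-Cre, in which Stra8-Cre, active in male germ cells, removes exon 2 of Cnot4. The paper isolated spermatocytes of males at 6 weeks, but no age is given for these libraries, and the number of animals behind a library is not stated. The methods describe cDNA made from sorted cells with oligo-dT primers, whereas the labels describe kit libraries from total RNA extracted with Trizol, and which of these was used was not determined. No source describes a selection of small RNA.

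A miRNA gene is transcribed as a long primary transcript, from which DROSHA and DGCR8 cut a hairpin in the nucleus. DICER1 then trims the hairpin to a mature miRNA, which is loaded into an Argonaute protein and pairs with mRNAs mainly through its seed, bases 2 to 8 counted from the 5′ end. Argonaute binds GW182 proteins (TNRC6A to TNRC6C), which recruit the CCR4-NOT deadenylase, the complex that holds CNOT4. In male meiosis, miRNA genes of the X chromosome and the families of miR-34 and miR-449 are known for their expression in spermatocytes. The files list genes of hairpin size and no mature miRNAs.

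The mature sequences of the entries on which the results turn follow, with the seed in capitals. They are from RefSeq (GRCm38.p6), which held 107 mature sequences of 71 members, 19 to 26 nt long. Where it held more than 1 for a member, only 1 is printed here. The first 3 belong to the let-7 cluster and share a seed, as do both miR-883 sequences. The miR-680 sequence is the product of both Mir680-1 and Mir680-2. The others are from entries with the most fragments or with values in 1 group or stage.
let-7a-5p: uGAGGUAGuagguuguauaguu
let-7d-5p: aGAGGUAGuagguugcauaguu
let-7f-5p: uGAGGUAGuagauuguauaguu
miR-883a-3p: uAACUGCAacagcucucaguau
miR-883b-3p: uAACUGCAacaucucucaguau
miR-680: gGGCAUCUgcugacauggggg
miR-703: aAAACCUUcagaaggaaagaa
miR-3091-3p: cGGGCCUGaccagucucaagac
miR-1982-3p: uCUCACCCuauguucucccacag
miR-3968: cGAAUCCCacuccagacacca
miR-135a-5p: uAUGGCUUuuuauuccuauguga
miR-3064-5p: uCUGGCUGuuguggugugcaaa

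Of the 71 members with a mature sequence, 9 shared a seed with another member, through 5 seeds. Besides let-7, miR-680 and miR-883, Mir181a-2 and Mir181b-2 had a common seed. In the mm9 assembly, 85 of the 88 members had a position, of which 35 lay outside annotated genes, 27 in an intron, and 23 in an exon of a gene on the same strand. These exonic members were 12 in untranslated exon, 6 in coding exon and 5 in noncoding exon. Chromosome 2 held 15 members, 9 of which lie in the large intronic cluster of Sfmbt2 between 10389417 and 10439906. A further 8 members were on chromosome 13 and 7 on the X chromosome.

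Across the series, Cnot4 at LZ was at 36.0 and 34.9 FPKM in WT against 43.2 and 34.6 in Cnot4-null. At PD its values were 76.6 and 73.1 in WT against 65.9 and 53.5 in Cnot4-null. These values cover the whole gene and not only the deleted exon, so they do not check the labels. The summed FPKM of 5 Leydig cell markers was 10017 and 22195 in Cnot4-null PD but between 7.07 and 115 in the other 6 libraries. In Cnot4-null PD, the summed values of 5 macrophage markers were 17.2 and 84.9, against 1.46 and 1.70 in WT PD. At LZ the macrophage sums were 24.8 and 0.915 in WT against 5.93 and 1.65 in Cnot4-null. Spermatid markers, measured as a sum of 5 genes, were at 15665 and 7045 in Cnot4-null PD, against 397 and 248 in WT PD. In the LZ libraries the spermatid sum was 701 to 4025. In Cnot4-null PD, 4 Sertoli markers summed to 102 and 209, and 4 peritubular and vascular markers to 46.5 and 228, against at most 17.99 and 1.25 in WT PD. The 3 leptotene and zygotene markers listed were at 238 and 162 there, against 10.1 and 7.64 in WT PD and 406 to 779 at LZ. For 4 spermatogonia markers these sums were 224 and 289, against 12.1 and 7.10 in WT PD and 289 to 463 at LZ. The part of these other cells or stages in any miRNA value was not tested, and in such bulk samples more cells of a type and more RNA per cell cannot be told apart. The summed values of 5 pachytene and diplotene markers were 89.0 to 332 in the LZ libraries, and at PD 11825 and 10963 in WT against 5436 and 1878 in Cnot4-null. All 3 meiotic markers (Sycp1 to Sycp3) were above 1 FPKM in every library.

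High FPKM of these entries rested on very few sequenced fragments. For short entries, the values of a library fell on whole multiples of a step that depended only on the length of the entry and on the library. The curve of this step against length was fitted on 89 small nucleolar RNA entries, which are therefore no separate check of it. Its start was chosen where most of their 209 values gave the same worth of 1 fragment. These were 82, against 6 or 7 with the other starts tried, from 40 to 55 nt. The curve starts at fragments of 48 nt, which is longer than any of the 107 mature sequences. On this curve 1 fragment of WT LZ replicate 1 was worth 940 FPKM in an entry of 65 nt, 396 in one of 74 nt, 185 at 85 nt, 85.3 at 100 nt and 39.0 at 120 nt, against 0.0865 FPKM in a transcript of 2000 nt. The scale relative to that library, by which FPKM turns into fragments, was lowest in Cnot4-null PD replicate 2 (0.823) and highest in WT PD replicate 2 (1.33). It is the scaling within the FPKM and not the sequenced depth, since the read totals and mapping rates listed by the study put the libraries in another order. At PD, WT had 1.39 times the scale of Cnot4-null, so that a ratio of fragments in Cnot4-null to WT is larger by this factor once scaled. The cause was not tested.

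**Figure D1:**
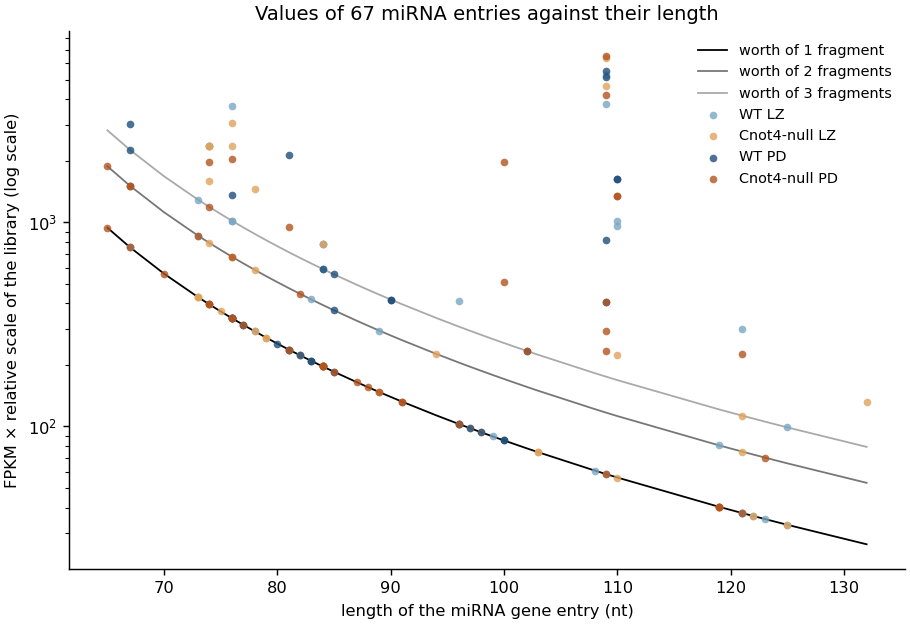
FPKM of 67 miRNA entries (y, log scale, multiplied by the relative scale of the library) against the length of the entry in nt (x), with 1 point for each value above 0 and the worth of 1, 2 and 3 fragments as lines. Of 162 values, 86 lie on the line of 1 fragment, and the entries near 65 nt exceed 900 FPKM with a single fragment.

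Coordinates here are those of mm9. Fragments were recovered in every library for 67 of the 84 members with a known length, to within 0.03 fragment. No length was at hand for Mir1843, Mir1940, Mira and Mirg. These 67 members held 1212 fragments over the 8 libraries. Mir703 alone had 710 of them, or 58.6%. In all 8 libraries together, 23 members had 1 fragment, another 20 had 2 or 3, and 11 had at least 10. The single fragments fell in WT LZ for 5 members, in WT PD for 3, in Cnot4-null LZ for 6 and in Cnot4-null PD for 9, and gave values of 53.1 to 915 FPKM. Of 162 values above 0, 86 (53.1%) were exactly 1 fragment, for which the exact 95% Poisson interval runs from 0.0253 to 5.57 fragments. A value of 3 fragments has an interval of 0.619 to 8.77. Intervals here cover counting error only. A group listed at 0 in both libraries is set at a limit of 3 fragments where a fold is given against it, without the counting error of the other group. Of 13 such folds in calls, 5 had an exact lower limit of 1 or less once that error was counted. These were the folds of Mir425, Mir669h, Mir3064 and both of Mir135a-1. In the other 8, the exact limit ran from 1.13 (Mir707) to 8.04 (Mir3968), in each case below the fold given as at least.

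The entries that did not give whole fragments lay mostly in exons of other genes. Of the 23 exonic members with a length, 12 (52.2%) were not whole, against 2 of 27 intronic members (7.41%) and 3 of 34 outside genes (8.82%). Among these 17 entries were Mir1893, in a coding exon of Epc1, at 139 to 761 FPKM in all 8 libraries, and Mir705, in the untranslated exon of Rab11fip5. Values of 30 library entries were above 0 but under 0.001 fragment, such as the 6.37e-05 FPKM of Mir705 in WT PD replicate 2.

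Agreement between duplicates followed the number of fragments. Of 64 cases in which the higher library of a group had 1 fragment, the other library also had one in 9 (14.1%). With 2 or 3 fragments in the higher library this was 10 of 24 (41.7%), and with 4 or more it was 25 of 30 (83.3%). Of the members above 1 FPKM in a group, the share above 1 in both its libraries was 34.2% for WT LZ and 33.3% for WT PD. The same share was 41.5% for Cnot4-null LZ and 40.4% for Cnot4-null PD. Over all 15899 entries above 1 FPKM in at least 1 library, this share was 86.1% to 92.6%. In the 8 libraries, 39 members were above 1 FPKM in a single library and 3 in every library, namely Mir703, Mir3091 and Mir1893.

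**Figure D2:**
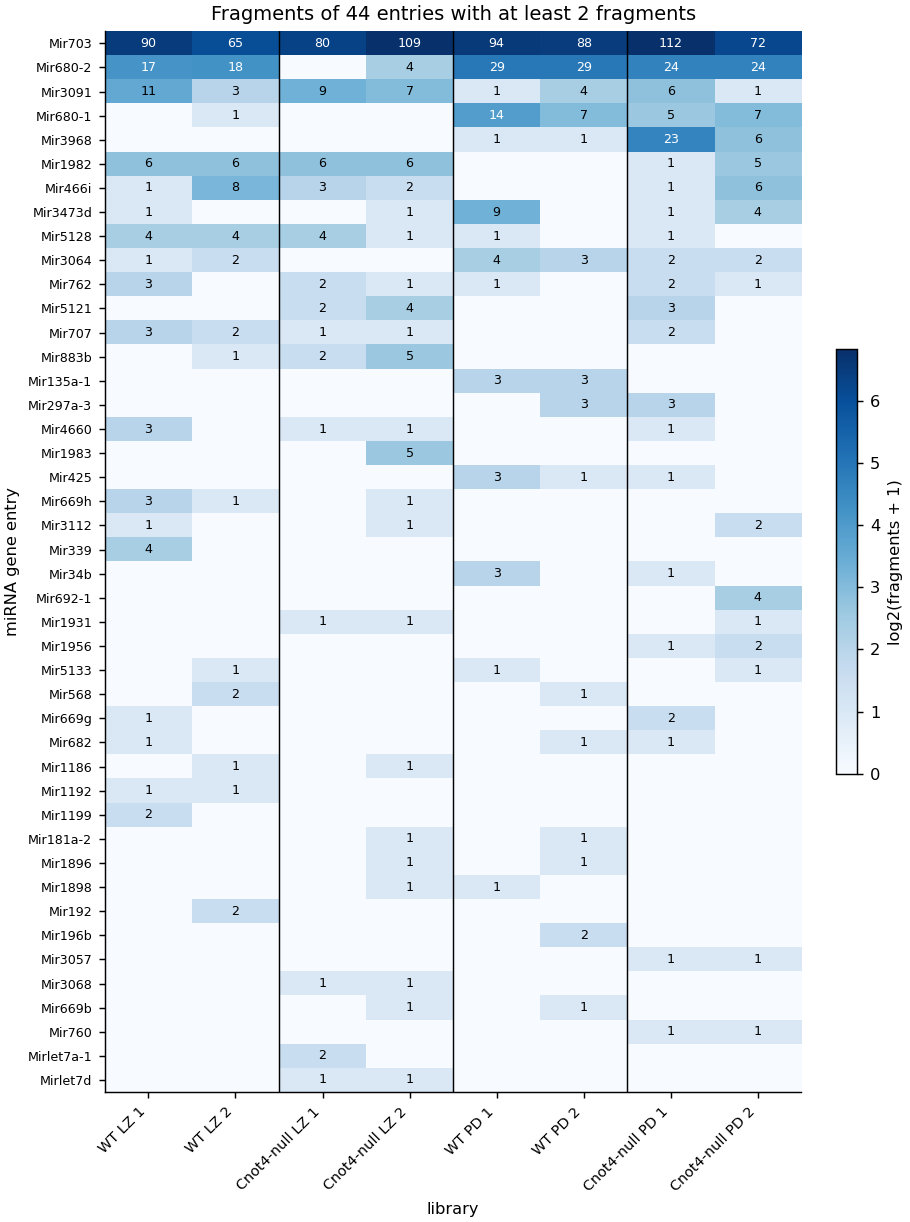
Fragments (number in the cell, colour as log2 of fragments + 1) of the 44 entries with at least 2 fragments in all, by library, ordered by their sum. Mir703 has 65 to 112 fragments in each library, while most of the lower rows hold 1 or 2 fragments in 2 libraries.

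Mir703 was the entry with the highest level and the only one with more than 30 fragments in a library. At LZ it had 90 and 65 fragments in WT against 80 and 109 in Cnot4-null, and at PD 94 and 88 in WT against 112 and 72 in Cnot4-null. Its FPKM ran from 3592 to 6524. At PD both Cnot4-null libraries (6524 and 5110 FPKM) were above both WT libraries (4520 and 3877 FPKM). Scaled as in FPKM, the fragments of Cnot4-null PD were 1.41 times those of WT PD (95% counting interval 1.14 to 1.74), whereas unscaled they were 184 and 182, a ratio of 1.01 (0.819 to 1.25). The change did not pass the test (0.46 ± 0.30 (SE) on the log2(FPKM + 1) scale, limma with Benjamini-Hochberg adjusted p = 0.214). Between PD and LZ in WT the ratio was 0.951 (0.763 to 1.19). The entry (chr5:98904575-98904683) lies opposite to 1700007G11Rik, which went from 2.37 and 15.0 FPKM in WT LZ to 599 and 582 in WT PD, a range that Mir703 did not share. Whether strand was used in counting is not stated, so reads of the opposite gene cannot be told apart from those of the miRNA gene.

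Mir680-2 and Mir680-1 have the same mature sequence and lie on the X chromosome (chrX:140732333-140732442) and on chromosome 6 (chr6:129641553-129641661). The rest of their hairpins was not compared, and how reads were split between them is uncertain. Mir680-2 at LZ had 17 and 18 fragments in WT against 0 and 4 in Cnot4-null, and at PD 29 and 29 in WT against 24 and 24 in Cnot4-null. The low group was Cnot4-null LZ, with no overlap with any other group. There the fragments were 8.47 times fewer than in WT LZ (95% counting interval 3.03 to 32.8), without passing the test (log2 change -6.03 ± 2.04 (SE), limma adjusted p = 0.720). In Cnot4-null, PD was 13.1 times LZ (4.79 to 50.0), which passed (limma adjusted p = 0.0326). Without either Cnot4-null PD library, or any 1 WT library, it did not. The call of Mir680-2 was also lost without a filter on low entries (limma adjusted p = 0.124), with only the libraries compared (0.128) and with a pseudocount of 0.1 (0.0555). Mir680-1 at LZ had 0 and 1 fragments in WT and none in Cnot4-null, and at PD 14 and 7 in WT against 5 and 7 in Cnot4-null. Both genotypes were higher at PD. The fragments in WT were 17.0 times those at LZ (2.73 to 703, limma adjusted p = 0.0141), and in Cnot4-null they were at least 4.36-fold higher than in LZ (limma adjusted p = 0.00458). The call in WT was lost without WT PD replicate 1 or without either Cnot4-null PD library. It was also lost without a filter (limma adjusted p = 0.0744) and with only the libraries compared (0.109).

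Mir3968 (chr11:115309275-115309374), opposite to 4933422H20Rik, had no fragment in any LZ library, 1 in each WT PD library, and 23 and 6 in Cnot4-null PD. Both Cnot4-null PD libraries were above both WT PD libraries, with a ratio of 20.2 (5.10 to 175) and a limma adjusted p of 0.000693. The opposite gene was at 0.296 and 0.272 FPKM in WT PD against 18.4 and 3.94 in Cnot4-null PD, and was likewise called (limma adjusted p = 0.00599).

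Mir1982 (chr10:80291542-80291615) lies in an intron of Oaz1, which encodes an inhibitor of polyamine synthesis. It had 6 fragments in each of the 4 LZ libraries, none in WT PD, but 1 and 5 in Cnot4-null PD. In WT, PD was at least 4.94-fold lower than LZ (limma adjusted p = 2.89e-05), and at PD Cnot4-null was at least 2.78-fold higher than WT (limma adjusted p = 0.000163). Oaz1 at LZ was at 1087 and 822 FPKM in WT against 816 and 720 in Cnot4-null. At PD it was at 115 and 123 in WT against 379 and 342 in Cnot4-null, so that WT PD was lowest for the host as for the miRNA entry. Its change in Cnot4-null against WT at PD was 1.59 ± 0.21 (SE) on the log2 scale (limma adjusted p = 0.0011).

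Mir3091 (chr2:179992241-179992316), in an intron of the ribosomal protein gene Rps21, at LZ had 11 and 3 fragments in WT against 9 and 7 in Cnot4-null, and at PD 1 and 4 in WT against 6 and 1 in Cnot4-null. The lowest values were at PD, and none of the 4 comparisons was called. In WT, LZ was 3.46 times PD in fragments (1.18 to 12.3, limma adjusted p = 0.148). Rps21 was at 2365 to 3055 FPKM in the 4 LZ libraries, and at PD it was at 749 and 819 in WT against 1741 and 1429 in Cnot4-null. The genotypes differed at PD (log2 change 1.01 ± 0.24 (SE), limma adjusted p = 0.0118). Mir5121, in a coding exon of Rpl13a, another ribosomal protein gene, had 2 and 4 fragments in Cnot4-null LZ, 3 and 0 in Cnot4-null PD and none in WT, and was not called. Rpl13a was at 272 and 267 FPKM in WT PD against 989 and 900 in Cnot4-null PD. Whether fragments in these entries come from hairpins or from the host transcript was not tested.

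**Figure D3:**
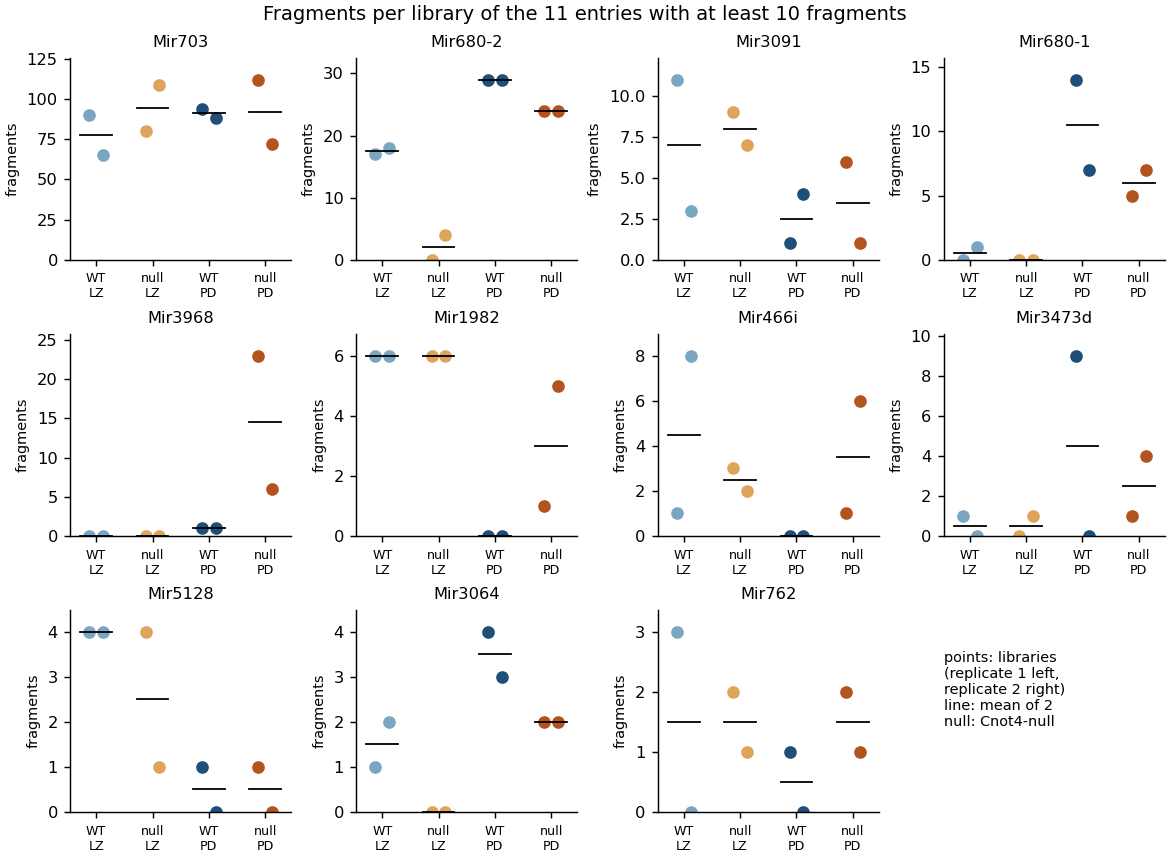
Fragments per library (y) of the 11 entries with at least 10 fragments, 1 panel each, with points for the 2 libraries of a group and a line at their mean. Mir1982 has 6 fragments in every LZ library and none in WT PD, and Mir3968 has 23 and 6 in Cnot4-null PD against at most 1 elsewhere.

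In the remaining entries with 10 or more fragments, duplicates often differed by several fragments. Mir466i, opposite to Cdk13, at LZ had 1 and 8 fragments in WT against 3 and 2 in Cnot4-null, and at PD none in WT against 1 and 6 in Cnot4-null. It was called as lower in PD than in LZ in WT (at least 3.71-fold, limma adjusted p = 0.00142) and as higher in Cnot4-null at PD (at least 3.25-fold, limma adjusted p = 0.00264). Mir3473d, in an intron of Ddx19b, had 9 and 0 fragments in WT PD against 1 and 4 in Cnot4-null PD. Mir5128, in an intron of Strbp, had 4 fragments in 3 of the 4 LZ libraries and at most 1 in a PD library. Mir762, opposite to Bcl7c, had at most 3 fragments in a library. Mir3473d, Mir5128 and Mir762 were not called in any comparison. Mir3064 (chr11:106644007-106644073) lies in a coding exon of Ddx5, whose protein works with DROSHA, and at LZ had 1 and 2 fragments in WT against none in Cnot4-null. At PD it had 4 and 3 in WT against 2 and 2 in Cnot4-null. The ratio of PD to LZ in WT was 1.89, with a counting interval of 0.431 to 11.3 that includes no change, although the test called it (limma adjusted p = 0.0362). This call was lost without any 1 library other than WT LZ replicate 2 and WT PD replicate 2. It was also lost without a filter (limma adjusted p = 0.102), under quantile normalization (0.128) and with only the libraries compared (0.132).

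Cnot4-null and WT spermatocytes were compared at PD to find the entries that differ with the genotype. By limma on log2(FPKM + 1), with an adjusted p under 0.05, 10 of the 88 members were higher in Cnot4-null and 1 was lower. These are 11.4% and 1.14% of the members, while over all entries tested 41.6% were higher and 11.5% lower. The median log2 change was 0 over the members and 0.66 over all entries, and the latter became -0.10 under quantile normalization and 0.42 when libraries were rescaled to the same median. Members and all other entries tested were kept only if they exceeded 1 FPKM somewhere, which 1 fragment alone does in an entry of hairpin size. These counts describe the list and do not support a direction. Without Cnot4-null PD replicate 1 there were 19 calls and without replicate 2 there were 17, in which the lone library is assumed to vary like the other groups. The higher members were Mir1956, Mir1982, Mir705, Mir678, Mir1897, Mir3057, Mir466i, Mir760, Mir3968 and Mira. Mir135a-1 was the lower one, with 3 and 3 fragments in WT PD and none in the other 6 libraries (limma adjusted p = 3.03e-05). It lies at chr9:106056455-106056544, in an intron of D030055H07Rik on the same strand and opposite to Glyctk. Glyctk was at 12.03 and 11.4 FPKM in WT PD against 6.07 and 6.32 in Cnot4-null PD.

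Of the 7 called members with whole fragments in this comparison, 3 had at most 3 fragments in the higher group. Mir1956 (chr3:138189385-138189449), in an intron of Eif4e, the cap-binding translation factor, reached 937 and 2284 FPKM in Cnot4-null PD with 1 and 2 fragments (limma adjusted p = 4.44e-05). Mir3057 and Mir760 had 1 fragment in each Cnot4-null PD library and none elsewhere. With 0 in one group and at most 3 fragments in the other, no fold can be given at this depth. Mir1897, in a noncoding exon of Sox2ot, gave no whole fragments. It was at 249 and 186 FPKM in Cnot4-null PD, which is 0.919 and 0.563 of a fragment, and was listed at 0 elsewhere. Mir705 was at 0 and 6.37e-05 FPKM in WT PD against 2038 and 220 in Cnot4-null PD (limma adjusted p = 0.000706), whereas its host Rab11fip5 was lower in Cnot4-null PD (log2 change -1.39 ± 0.48 (SE), limma adjusted p = 0.0428). Mir678, in an untranslated exon of Prmt2, was at 118 and 779 FPKM in Cnot4-null PD and listed at 0 in WT PD (limma adjusted p = 0.0132). This call was lost without either WT PD library (0.0718 and 0.0725), without Cnot4-null PD replicate 2 (0.121) and without a filter on low entries (0.0668). Mira was at 0.647 and 0.592 FPKM in WT PD against 2.61 and 3.82 in Cnot4-null PD (log2 change 1.37 ± 0.32 (SE), limma adjusted p = 0.0103), a direction that turned under quantile normalization (-0.090). The call of Mira was lost without either WT PD library (0.0629 and 0.0694). All the marker lists given above differed between the groups of this comparison without overlap.

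At LZ, 2 members were higher in Cnot4-null and 2 were lower, against 0.0692% and 0.0252% of all entries tested (15 entries in all). The higher ones were Mir3068 and Mirlet7d, each with 1 fragment in both Cnot4-null LZ libraries. The lower ones were Mir3064 (1 and 2 fragments in WT LZ) and Mir1192 (1 and 1). In each case the other genotype had no fragment at LZ. All 4 calls therefore rested on 2 or 3 fragments in the higher group, 1 in each duplicate except for the 2 of Mir3064 in WT LZ replicate 2 (limma adjusted p of 2.12e-05 to 0.000195, SE of 0.23 to 0.33). With only the LZ libraries in the fit, 1 member was called. Without any 1 of the LZ libraries the calls were 9 to 11, and 6 without either Cnot4-null PD library.

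**Figure D4:**
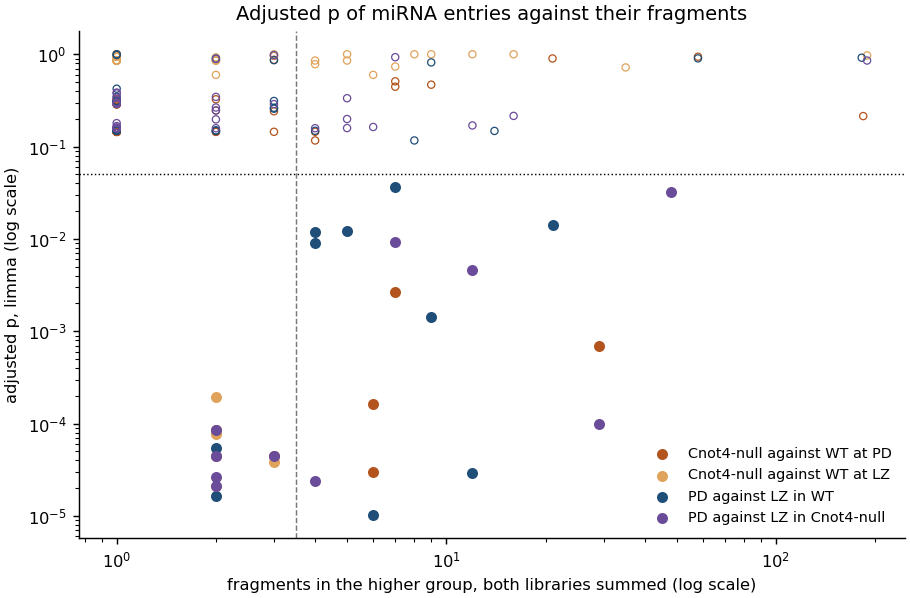
Adjusted p of limma (y, log scale) against the fragments of both libraries of the higher group (x, log scale), 1 point for each entry and comparison, filled where called. The dotted line is an adjusted p of 0.05 and the dashed line separates 3 from 4 fragments. Calls at 2 and 3 fragments reach adjusted p between 1.66e-05 and 0.000195, while Mir703, at the right edge, is not called.

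From LZ to PD in WT, 6 members were higher and 5 were lower, against 21.6% and 36.2% of all entries. The higher ones were Mir3064, Mirg, Mir680-1, Mir3968, Mir425 and Mir135a-1. The lower ones were Mir1982, Mir707, Mir466i, Mir669h and Mir1192. Mir707, in an untranslated exon of Akt1s1, had 3 and 2 fragments in WT LZ and none in WT PD, at least 2.06-fold lower (limma adjusted p = 0.0121). Mir669h, of the Sfmbt2 cluster, went from 3 and 1 fragments to none, where the counting error also includes no change. Its host Sfmbt2 moved the other way, from 14.6 and 10.9 FPKM to 31.4 and 32.1 (log2 change 1.27 ± 0.24 (SE), limma adjusted p = 0.00284). Mir425 had 3 and 1 fragments in WT PD and none at LZ, and its counting error includes no change. The call of Mir707 was lost without any 1 of the 4 WT libraries (limma adjusted p of 0.0581 to 0.0745), that of Mir669h without any except WT LZ replicate 2 (0.0511 to 0.0747), and that of Mir425 without any except WT PD replicate 2 (0.063 to 0.079). All 3 were also lost without a filter (0.055 to 0.0682).

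In Cnot4-null, 10 members were higher at PD than at LZ and 3 were lower, against 27.8% and 18.2% of all entries. Beside Mir680-1, Mir680-2 and Mir3968, the higher ones were Mira, Mirg, Mir760, Mir3057, Mir1897, Mir1956 and Mir3064. Mir3968 was at least 10.5-fold higher (limma adjusted p = 0.0001). The lower ones were Mir883b, with 2 and 5 fragments at LZ and none at PD (at least 2.14-fold, limma adjusted p = 0.00922), and Mir3068 and Mirlet7d. The call of Mir883b was lost without any 1 of the Cnot4-null libraries, and also without a filter (limma adjusted p = 0.0534). The call of Mira was lost without Cnot4-null LZ replicate 1 (0.113), without Cnot4-null PD replicate 2 (0.0556) and under quantile normalization (0.466). Without Cnot4-null PD replicate 2 there were 21 calls in all. The comparisons share libraries, so that their calls are not independent.

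Over the 4 comparisons, 22 members were called at least once. Of the 39 calls, 31 were in members with whole fragments, and 14 of these had at most 3 fragments in the higher group. The remaining 17 had more than 3. The effect of the genotype differed between PD and LZ for 12 members. The log2 change of Cnot4-null against WT at PD minus that at LZ was positive for 9 and negative for 3, against 26% and 3.97% of all entries. The sign does not say at which stage the genotypes differed, since for Mir1192 and Mir3064 the positive sign came from lower values of Cnot4-null at LZ. The calls of this kind were 16 to 20 without any 1 library other than WT PD replicate 2.

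Values that were all or none, listed above 0 in both libraries of 1 group and at 0 in both of the other, were found in 24 members. This count includes values far under 1 fragment. With values under 0.001 fragment read as 0, there were 9 such members in place of 10 between the genotypes at PD, and 9 in place of 12 between the stages in WT, while the other 2 counts were the same. At PD, 8 members (9.09%) were above 0 only in Cnot4-null, against 4.03% of all entries tested. A further 2 (2.27%) were above 0 only in WT, against 0.176% of all entries. At LZ these were 5 (5.68%) only in Cnot4-null, against 0.686%, and 2 (2.27%) only in WT, against 0.906%. Between the stages in WT, 4 (4.55%) were found only at PD, against 2.21%, and 8 (9.09%) only at LZ, against 2.62%. In Cnot4-null, 7 (7.95%) were found only at PD, against 4.2%, and 3 (3.41%) only at LZ, against 0.245%. Of 29 such cases with whole fragments, 15 had at most 3 fragments in the positive group, and 14 had more. Only Mir3968, with 29 fragments in Cnot4-null PD, and Mir1982 and Mir680-1, with 12 each, had more than 10.

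Mirg, the long transcript of the imprinted Dlk1-Dio3 region that holds many miRNA hairpins, was above 1 FPKM in all 4 PD libraries and in no LZ library, as was Mir3968. At LZ it was at 0.142 and 0 FPKM in WT against 0.152 and 0 in Cnot4-null, and at PD 11.9 and 12.4 in WT against 7.79 and 12.1 in Cnot4-null. All 4 PD libraries were far above all 4 LZ libraries, with a log2 change of 3.62 ± 0.29 (SE) in WT (limma adjusted p = 5.75e-05) and 3.32 ± 0.29 in Cnot4-null (limma adjusted p = 0.000389). At PD the genotypes overlapped. Of 8 miRNA entries annotated within it (chr12:110973191-110987665), 7 were listed at 0 in every library, and Mir410 did not exceed 0.000606 FPKM.

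The families known from spermatocytes had few fragments. In the family of miR-34 and miR-449, 1 of the 6 listed entries was above 0. This was Mir34b, with 3 and 0 fragments in WT PD, 1 and 0 in Cnot4-null PD and none at LZ. Of 22 listed genes of the X-linked testis clusters, 4 were members. At LZ these had 2 fragments in WT against 8 in Cnot4-null, and at PD none in WT against 1 in Cnot4-null. Mir883b (chrX:64043065-64043142) made up 7 of the 8 in Cnot4-null LZ. It had 0 and 1 fragments in WT LZ and 2 and 5 in Cnot4-null LZ, which did not overlap but were not called.

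Of 12 listed let-7 genes, 3 were members, all from the cluster on chromosome 13 between 48631381 and 48633641. Their fragments were found only in Cnot4-null LZ. Mirlet7d had 1 in each library, while Mirlet7a-1 had 2 and 0 and Mirlet7f-1 had 1 and 0. Together these were 4 and 1 fragments, against 0 in each of the other 6 libraries. The 7 members of the Sfmbt2 cluster with whole fragments held between 0 and 7 fragments in a library, with 7 and 1 in the duplicates of WT LZ and 7 and 0 in those of Cnot4-null PD. Of 16 listed genes of the family of miR-17 and miR-92, Mir25 alone was a member, on 1 fragment. No entry of the cluster from miR-290 to miR-295 was above 0.

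Genes of the miRNA pathway are long transcripts. Of 28 pathway genes tested, 12 (42.9%) were higher and 3 (10.7%) lower in Cnot4-null than in WT at PD, shares close to the 41.6% and 11.5% of all entries. None was called at LZ (3 had an unadjusted p under 0.05 by limma). Drosha, for nuclear cropping, was at 5.25 and 3.55 FPKM in WT PD against 27.98 and 22.5 in Cnot4-null PD (log2 change 2.29 ± 0.27 (SE), limma adjusted p = 0.000674). Dicer1 was at 0.173 and 0.255 in WT PD against 7.01 and 8.87 in Cnot4-null PD (2.87 ± 0.25, limma adjusted p = 0.000267). Its level in WT LZ was 14.0 and 10.5 FPKM. All 4 values in Cnot4-null LZ and Cnot4-null PD were above those of WT PD.

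Among the effectors, Tnrc6a (GW182) was at 1.42 and 1.52 FPKM in WT PD against 12.97 and 18.2 in Cnot4-null PD (limma adjusted p = 0.000312). Tnrc6b was higher too (log2 change 1.70 ± 0.25 (SE), limma adjusted p = 0.00187). Tnrc6c was near the limit (0.77 ± 0.27, limma adjusted p = 0.0469), with a change close to the median of all entries (0.66). Pathway genes were fitted with the main settings only. Eif2c1, the gene of Argonaute 1, rose (1.68 ± 0.40 (SE), limma adjusted p = 0.0115), whereas Eif2c4, the gene of Argonaute 4, fell (-1.02 ± 0.30, limma adjusted p = 0.0263). The other genes called as higher were Adar, an RNA-editing enzyme, the let-7 inhibitors Lin28a and Lin28b, Tsn, the exonuclease gene Xrn2 and Papd4. Ddx5 and Ran, the GTPase of nuclear export, were lower. Between the stages in WT, 15 of the 28 (53.6%) were lower and 5 (17.9%) higher at PD, against 36.2% and 21.6% of all entries.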

How the data were processed

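RNA-seq values of 8 libraries were analysed. According to the submitters' processing notes, the authors used TopHat2 2.1.1, Cufflinks 2.2.1 and mm9, and the paper describes unique mapping. The deposited files hold 1 FPKM for each gene symbol, 1 file per library, with no read counts. The members and lists were chosen with earlier results of these data known. Entries above 1 FPKM in at least 1 library (15899) were fitted as log2(FPKM + 1) over the 4 groups with limma 3.58.1 in R 4.3.3 (eBayes with a trend), two-sided, with Benjamini-Hochberg adjustment over all entries in each of 5 contrasts. A change on this scale understates that of low values. An exact test of 2 against 2 libraries could not go below p = 0.333. The methods call the duplicates biological replicates of sorted spermatocytes, without saying whether they came from separate animals. The p-values measure the spread between these libraries, moderated by limma over all entries. Where an entry had 1 fragment in both libraries of 1 group and 0 elsewhere, its own spread was only the difference in scale. Such p-values do not hold the counting error.

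Fragments were recovered from FPKM with the effective length of a normal fragment distribution (mean 200 nt, SD 80 nt), truncated at 48 nt, and the relative scale of the libraries was taken from entries of low FPKM. Values were whole within 0.03 fragment in 78.1% of cases, and values under 0.001 fragment were read as 0. The read totals listed by the study are not used here, and the fragments depend on the scaling within the FPKM. Ratios have exact binomial intervals. Neither the limma calls nor the recovery of fragments was checked on independent libraries. How reliable a call is that rests on 1 fragment in each duplicate was not tested. Positions are from GENCODE vM1 or exact matches of RefSeq hairpins in the same assembly. Named were the 10 entries of highest mean, the 4 largest called rises and falls without overlap in each comparison, entries above 1 FPKM in all libraries, family members above 1 FPKM in both libraries of a group (at most 4 a family), their host genes, and called pathway genes. Mir3057, Mir760, Mir1897, Mira, Mirg and others outside this rule were named after their values were seen. The alternatives are given in the closing section. Python 3.11.15, scipy 1.17.1 and matplotlib 3.10.9 were used.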

Additional observations from a re-analysis of the deposited data

Results flagged for a closer look

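A test of the interaction of genotype and stage called 12 entries, whose difference between Cnot4-null and WT was not the same at PD as at LZ (limma, Benjamini-Hochberg adjusted p). The smallest adjusted p was 0.00017, for Mir135a-1 (3 and 3 fragments in WT PD only) and for Mir3068 (1 and 1 in Cnot4-null LZ only). It was 0.000244 for Mir3057, Mir1897 and Mir3064, 0.000335 for Mir1956 and Mirlet7d, and 0.000666 for Mir1192 and Mir760. For Mir1982 it was 0.0016, for Mir3968 0.00622 and for Mir466i 0.0178. Of those with whole fragments, Mir1982, Mir3968, Mir466i and Mir3064 had more than 6 fragments in a group, and the call of Mir466i was lost without any of 6 single libraries (0.0508 to 0.0799). With 2 libraries a group, no library could be compared with others of its group for standing apart.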

How the results depend on the processing

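The count of called members was within 1.5 times for the other pseudocounts (0.1 and 10), a mean of at least 5 FPKM, quantile normalization, rescaling to the same median and no trend. In Cnot4-null against WT at LZ it was 1 with only the libraries compared, in place of 4, and in PD against LZ in WT it was 6 without a filter and 7 at an adjusted p of 0.01, in place of 11. Counts only of called members with more than 3 fragments, chosen after seeing the data, were 4 at PD, 0 at LZ and 5 between stages in Cnot4-null, and the cause of the other differences was not tested. All-or-none members with at least 100 FPKM were 6 at PD, 3 at LZ and 5 in WT, and with more than 3 fragments 3, 1, 6 and 4 in Cnot4-null. With 1 library left out, the calls were 11 to 19 at PD, 4 to 11 at LZ, 9 to 15 between stages in WT, 12 to 21 in Cnot4-null and 12 to 20 for the interaction. Of 853 refits of single calls, 63 lost the call with the direction kept. Of the 88 members, 49 were above 1 FPKM in at least 2 libraries and 34 in both libraries of a group. Whether libraries of the same replicate number share a source is not stated. Their deviations from the group means correlated at -0.0651 to 0.194, highest between Cnot4-null LZ and Cnot4-null PD. With 2 libraries a group, these correlations cannot decide it. With a replicate block 11, 4, 14, 14 and 12 members were called, in the order of the text, and no count moved by over 1.5 times. Of single entries, only Mira at PD reversed, which was then not called either (-0.0903 with quantile normalization).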
